A study of Mus musculus with 6 samples.

Results

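The genes described here are those of the proteins of the cytosolic ribosome, with their expressed paralogs, as the deposited table names them. They are the rows whose symbol is Rpl or Rps followed by a number, with or without a letter or a second number, together with Rplp0, Rplp1, Rplp2 and Rpsa, at a mean of at least 1 FPKM (fragments scaled for gene length and library size) over the 6 libraries and without symbols ending in ps. Of 28500 rows in the table, 85 met this rule. Symbols alone matched 86 rows, and the one left out was Rpl3l, a paralog of Rpl3 best known from muscle, at a mean of 0.0238 FPKM. The lowest inside the limit were Rpl32l at 1.04, Rps3a3 at 3.51 and Rps3a2 at 5.03 FPKM. Of the 85 members, 77 encode proteins of the ribosome itself: 31 of the small subunit, 43 of the large subunit and the 3 stalk proteins. Another 4 are paralogs of such proteins (Rpl22l1, Rpl7l1, Rps27l and Rps4l), and 4 rows are annotated in the table as processed pseudogenes (Rpl32l, Rpl6l, Rps3a2 and Rps3a3).

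The libraries were made from poly(A) RNA of colon epithelial cells from untreated mice labelled male and 8 weeks old. The 3 Ube2fflox mice carry the floxed Ube2f allele and have the genotype label WT. The 3 Ube2fΔIEC mice have the genotype label KO, and ΔIEC stands for deletion in the cells of the intestinal epithelium, so the floxed allele is common to both groups. The labels name no Cre driver, no littermates and no strain, and each library is labelled as a different mouse. Epithelium had been loosened from colon pieces with EDTA and passed through a strainer, which leaves other cells of the mucosa possible. Ube2f encodes an E2 enzyme that hands the ubiquitin-like protein NEDD8 to cullins. The comparison asks whether the mRNAs of the ribosome differ between these mice in the absence of any challenge.

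A ribosome is built from ribosomal RNA and a large set of different proteins, most of them present once per particle, and cells hold the proteins in proportion largely by controlling translation of their mRNAs and by destroying unassembled protein. The mRNAs begin with a run of pyrimidines, the 5′ terminal oligopyrimidine (TOP) tract, through which mTOR signalling controls their translation. When assembly is disturbed, free RPL5, RPL11 and RPL23 can bind MDM2 and raise p53, and NEDD8 has been found attached to many ribosomal proteins, RPL11 among them. In the gut these genes are strongly expressed in dividing crypt cells. Most have processed pseudogenes scattered over the genome, which makes them harder to count than other abundant mRNAs.

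The sequences that matter most for reading the counts are those of genes and their copies. Rps27 (GRCm38 chr3:90212522-90213651, minus strand) encodes a zinc-binding protein of the small subunit, and Rps27rt (chr9:114982366-114982739, minus strand) is its intronless copy. Their coding sequences, 252 bases without the stop codon, were identical in GENCODE M21 with 0 differences, so a read that lies within them names neither gene. The shared sequence is given once.
Rps27 and Rps27rt: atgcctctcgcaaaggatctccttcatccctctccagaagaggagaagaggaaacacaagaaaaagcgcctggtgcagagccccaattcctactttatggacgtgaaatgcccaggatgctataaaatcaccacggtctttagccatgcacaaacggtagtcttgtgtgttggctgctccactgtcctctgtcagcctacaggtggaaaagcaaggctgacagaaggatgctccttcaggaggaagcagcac
Rpl7a (chr2:26910764-26913318, plus strand), a large subunit protein, and Rpl7a-ps11 (chrX:166854211-166855011, plus strand) shared 796 of 798 coding bases (99.7%). The differences were A186G and A747C, with the base of Rpl7a first, positions counted from the A of the start codon and the base of the copy last. The longest stretch without a difference was 560 bases. Bases 121 to 240 of both are shown, with the base at position 186 in capitals.
Rpl7a: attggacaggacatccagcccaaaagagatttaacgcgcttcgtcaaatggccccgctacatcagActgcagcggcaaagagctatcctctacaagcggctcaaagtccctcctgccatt
Rpl7a-ps11: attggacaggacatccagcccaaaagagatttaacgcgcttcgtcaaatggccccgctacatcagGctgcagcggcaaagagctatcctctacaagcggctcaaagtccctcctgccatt
Rpl17 and Rpl17-ps10 differed at 4 of 552 coding bases (99.3% identical). The paralogs were less alike their parents: Rps4l matched 79.6% of Rps4x, Rps27l 76.2% of Rps27, Rpl22l1 67.4% of Rpl22 and Rpl7l1 49.9% of Rpl7 over the aligned coding sequence.

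Runs of pyrimidines were looked for near annotated start sites. RefSeq (GRCm38.p6) gave a start region for 61 of the 85 members. A C followed by at least 4 bases that are each C or T, on the gene's strand and beginning within 5 bases of the annotated start, stood in 30 of the 61 (49.2%) and in 5718 of 27025 genes of the RefSeq table (21.2%). Members with no match here only lack these letters within that window, and annotated starts can lie away from the first transcribed base. Nor does a match show that a TOP tract begins the mRNA, and the matches include the annotated pseudogene Rpl32l. The 30 bases around the start are shown for 3 genes to which the results return, with the run in capitals: Rpl28 (chr7:4792950-4792979, plus strand), Rps27 (chr3:90213634-90213663, minus strand) and the paralog Rpl22l1 (chr3:28805493-28805522, plus strand).
Rpl28: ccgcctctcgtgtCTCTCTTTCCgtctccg
Rps27: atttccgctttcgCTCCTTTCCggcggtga
Rpl22l1: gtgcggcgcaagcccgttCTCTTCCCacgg

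Total counts per library ran from 55971362 to 77524693, and all 85 members passed the filter on low counts that left 17900 genes. Levels are CPM (library-size scaled counts, with TMM factors), and log2 fold changes are Ube2fΔIEC over Ube2fflox with their standard error (SE). Ube2f itself was at 34.0, 42.1 and 32.1 CPM in Ube2fflox and 17.2, 18.0 and 21.0 CPM in Ube2fΔIEC (log2 fold change -0.95, SE 0.13). Over all genes it did not pass the quasi-likelihood test of edgeR (adjusted p = 0.0923 by Benjamini-Hochberg), and did in DESeq2 (adjusted p = 1.09e-07) and in edgeR without Ube2fflox replicate 1 (adjusted p = 0.0461). Without Ube2fΔIEC replicate 1 its adjusted p in edgeR was 0.288. The library labelled Ube2fΔIEC replicate 1 stood against its label: it held 494 CPM of Xist, where the other 5 had at most 1.33 CPM, and 0 counts of Ddx3y, Eif2s3y, Kdm5d and Uty, so the class-wide counts, the subunits, the gene lists and the genes it bears on are also given without it. Markers of epithelium summed to 15441 to 17107 CPM in Ube2fflox and 14605 to 16939 CPM in Ube2fΔIEC. The labels tie no mouse of one genotype to a mouse of the other.

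No ribosomal protein mRNA passed the test between the genotypes, and the measured differences were small. The quasi-likelihood test of edgeR, adjusted by Benjamini-Hochberg, called 0 of the 85 members, where 0.0447% of all genes were called (8 of 17900), and the smallest adjusted p of a member was 0.35. At an unadjusted p under 0.05 stood 10 members, all lower in Ube2fΔIEC, where 4.03% of all genes were lower at that level. The counts that follow take both directions together. At that level stood 1 member without Ube2fflox replicate 3, 2 without Ube2fΔIEC replicate 2 and 3 without Ube2fΔIEC replicate 1. The count was 8 without Ube2fflox replicate 2, 9 without Ube2fΔIEC replicate 3 and 14 without Ube2fflox replicate 1. With RLE and upper-quartile factors it was 10 and 11. With library totals, where 67 members had a log2 fold change above 0, it was 2. DESeq2 called 0 members as well, with 8 at an unadjusted p under 0.05, a smallest adjusted p of 0.167 and 1.26% of all genes called (234 of 18517). Without Ube2fflox replicate 1 edgeR called 90 genes and 0 members, and without Ube2fΔIEC replicate 1 it called 0 genes.

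With TMM most of the differences had one sign. The log2 fold change was below 0 for 77 of 85 members, against 50.0% of all genes, with a median of -0.10 (quartiles -0.14 and -0.05, range -0.45 to 0.45) beside 0.00 over all genes. It lay within ±0.25 for 81 members. For 78 of 85 the log2 fold change with 2 SE on either side stayed within ±0.5. These intervals hold for TMM with all 6 libraries, and another scaling shifts them. In 28 members every Ube2fΔIEC library was below every Ube2fflox library, a pattern that 6.90% of all genes showed. In 0 members was it the reverse, against 7.26% of all genes. Without Ube2fΔIEC replicate 1 the median was -0.08 and 66 members were below 0, against 51.4% of all genes, and 30 members had the remaining libraries apart in the lower direction, against 11.5%.

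The sign of these values depends on the scale. With library totals in place of TMM the median of all genes stood at 0.15 and that of the members at 0.05. The members then had 67 log2 fold changes above 0 and 18 below, where 25.3% of all genes were below. There was 1 member (Rpl22l1) with all Ube2fΔIEC libraries lower, against 2.20% of all genes, and 14 with all of them higher, against 20.3%. Relative to the median gene, the members stood 0.10 lower on the log2 scale under both scalings, and 77 of 85 lay below the median gene under each. A change of scaling moves all genes of a library alike, so this agreement was fixed in advance and is no check of the difference. A lower value below therefore means lower relative to the typical gene of the same libraries.

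**Figure D1:**
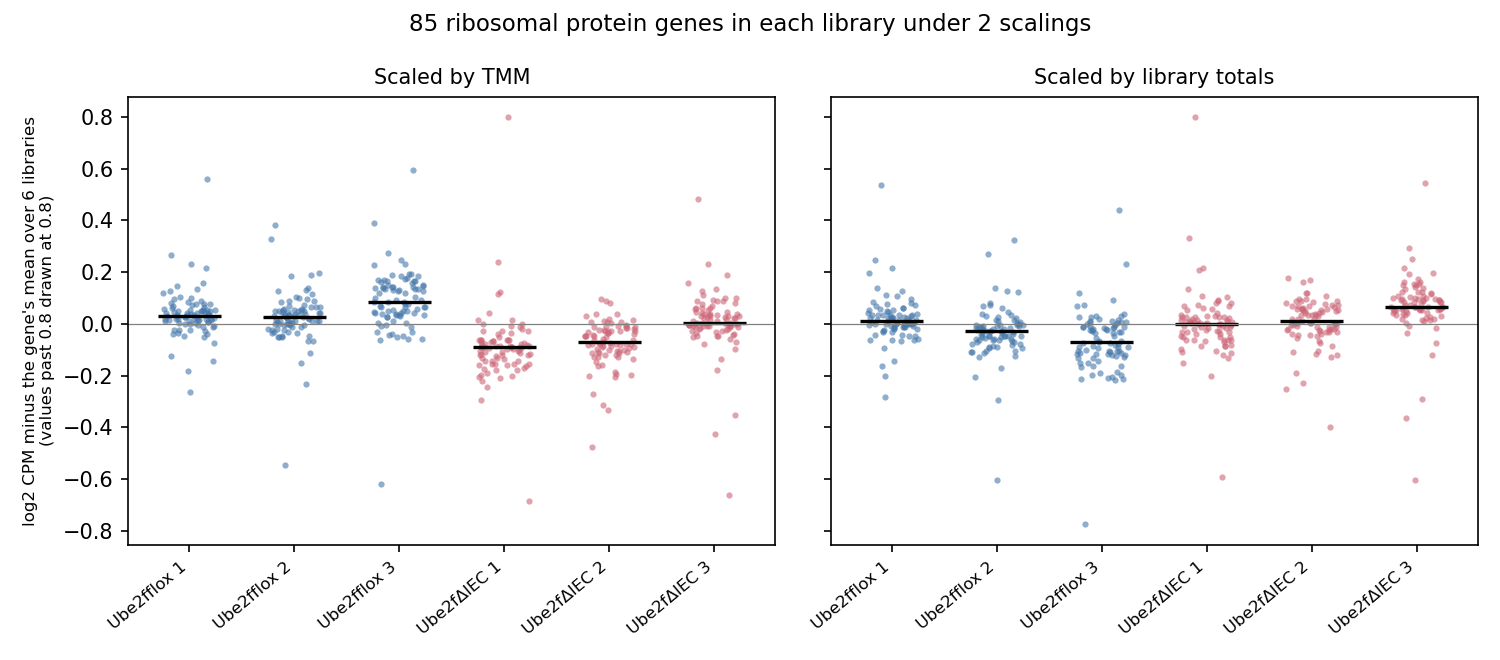
Each point is 1 of the 85 members in 1 library, as log2 CPM minus that gene's mean over the 6 libraries, scaled by TMM on the left and by library totals on the right; black lines are medians. With TMM the Ube2fflox medians lie at 0.03, 0.03 and 0.08 and the Ube2fΔIEC medians at -0.09, -0.07 and 0.01, while with totals they lie at 0.01, -0.03 and -0.07 against 0.00, 0.01 and 0.07.

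The members differed together from mouse to mouse, as the plot of members by library shows. The median member deviated from its own mean by 0.03, 0.03 and 0.08 on the log2 scale in the Ube2fflox libraries and by -0.09, -0.07 and 0.01 in the Ube2fΔIEC libraries. Ube2fΔIEC replicate 3 thus lay close to Ube2fflox replicates 1 and 2. The lowest medians were those of Ube2fΔIEC replicates 1 and 2, and the highest was that of Ube2fflox replicate 3. The median log2 fold change of the members was -0.08 without Ube2fflox replicate 3, and likewise without Ube2fΔIEC replicate 1. Counted by gene with TMM, 67 members in Ube2fΔIEC replicate 1, 60 in replicate 2 and 32 in replicate 3 were below all 3 Ube2fflox libraries, where 24.9, 22.5 and 21.9% of all genes were. Above all 3 stood 1, 1 and 18 members, where 25.9, 22.3 and 22.5% of all genes did. With TMM, Ube2fΔIEC replicate 1 was the lowest of the 6 for 47 members and Ube2fflox replicate 3 the highest for 46. With library totals the order differed: Ube2fflox replicate 3 was the lowest for 42 members and Ube2fΔIEC replicate 3 the highest for 52, while Ube2fΔIEC replicate 1 was the lowest for 11. Within a genotype the members varied little, with a median SD of 0.07 on the log2 scale against 0.211 over all genes tested. Of the 85, 79 lay under the latter. The comparison was not matched for level. Among the lists given further on, the median SD was 0.06 for other genes with TOP mRNAs and 0.097 to 0.336 for the rest.

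The members' share of all counts was 2.42, 2.32 and 2.25% in Ube2fflox and 2.37, 2.45 and 2.54% in Ube2fΔIEC, which overlapped and differed by 0.125 percentage points. Transcripts of the mitochondrial genome differed alongside and took 13.4, 16.0 and 21.3% of the counts in Ube2fflox and 11.1, 10.4 and 11.1% in Ube2fΔIEC, with the groups apart. With those genes and the ribosomal protein pseudogenes taken out of the total, the share was 2.80, 2.76 and 2.87% against 2.67, 2.74 and 2.86%, a difference of -0.050 points. The direction of the share is thus set by what the total contains. Sums of cell type markers are given beside these values. The 8 goblet markers summed to 9335 to 11093 CPM in Ube2fflox and 16030 to 16487 CPM in Ube2fΔIEC, with 6 of 8 higher. The 12 markers of dividing cells summed to 451 to 704 against 691 to 794 CPM, with 12 of 12 higher and sums that overlapped. Myeloid markers summed to 17.2 to 29.5 against 15.7 to 17.1 CPM, with 5 of the 7 tested lower and Adgre1, S100a8 and S100a9 at 0 in some library, and 0 genes of these lists passed the test. Other lists with overlapping sums had 10 of 10 lower for T and innate lymphoid cells (43.9 to 142 against 54.3 to 61.5 CPM), 8 of 8 lower for enteroendocrine cells (108 to 222 against 80.1 to 118 CPM) and 7 of 8 lower for absorptive colonocytes (9506 to 13738 against 8314 to 11031 CPM). Their part in the ribosomal protein values was not tested, and in such bulk RNA fewer cells of a type and less RNA per cell cannot be told apart.

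**Figure D2:**
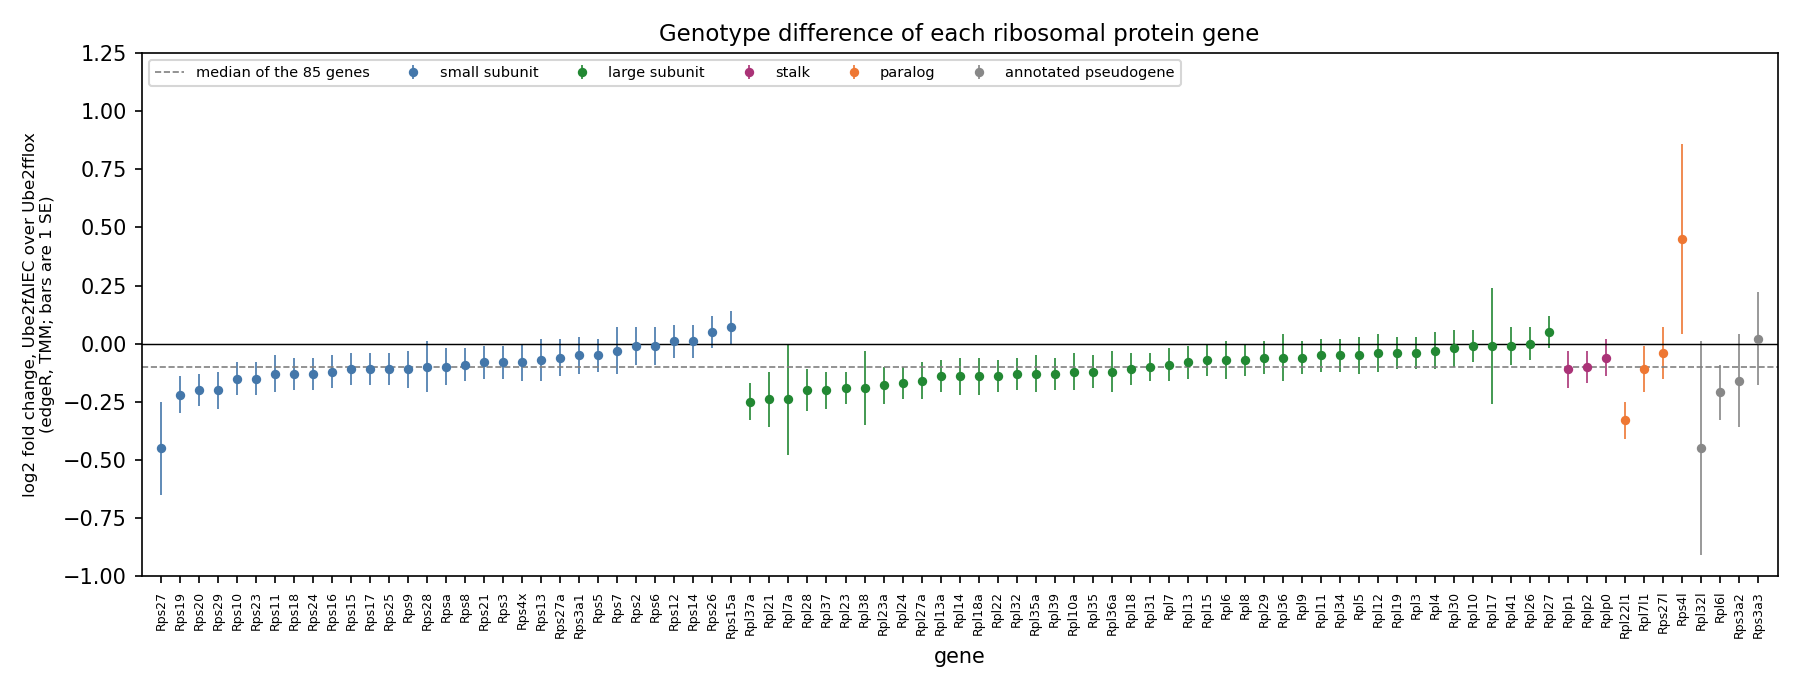
Log2 fold change of each member (Ube2fΔIEC over Ube2fflox, edgeR with TMM; bars are 1 SE, n = 3 mice per genotype), grouped by role and sorted within it, with the median of the 85 as a dashed line. Most lie between -0.25 and 0, and the widest bars belong to Rps4l, Rpl32l, Rpl7a, Rpl17 and Rps27.

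Both subunits had the same median, as the plot of fold changes by role shows. The small subunit had a median log2 fold change of -0.10, with 27 of 31 genes below 0 and 14 with the genotypes apart, all lower, against 6.90% of all genes. The large subunit without the stalk had a median of -0.10, with 41 of 43 below 0 and 12 apart, all lower. With library totals 0 genes of either subunit were apart in that direction, against 2.20% of all genes. Apart in the other direction were 7 of the small and 6 of the large subunit, against 20.3% of all genes. Without Ube2fΔIEC replicate 1 both medians were -0.07, with 22 of 31 and 34 of 43 below 0. The stalk proteins recruit elongation factors to the large subunit. Rplp0 had 1347, 1369 and 1447 CPM in Ube2fflox and 1261, 1333 and 1404 in Ube2fΔIEC, a log2 fold change of -0.06 (SE 0.08). The groups overlapped. Its partners Rplp1 and Rplp2 had log2 fold changes of -0.11 (SE 0.08) and -0.10 (SE 0.07). The 4 members on the X chromosome, Rpl10, Rpl36a, Rpl39 and Rps4x, had values of -0.01, -0.12, -0.13 and -0.08, and of these only Rpl39 had the genotypes apart. Without Ube2fΔIEC replicate 1, the library that held Xist, they stood at 0.03, -0.06, -0.12 and -0.02 relative to the median gene.

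Of the members with a mean of at least 10 CPM and genotypes that did not overlap, the lowest fold changes belonged to 5 genes. Rpl22l1, the paralog that in mice is held down by Rpl22, was at 25.9, 26.6 and 25.6 CPM in Ube2fflox and at 20.8, 20.1 and 21.1 CPM in Ube2fΔIEC. All the Ube2fΔIEC values lay below the others, and the means were 26.0 ± 0.512 and 20.7 ± 0.535 CPM (SD, n = 3). Its log2 fold change was -0.33 (SE 0.08). It was between -0.35 and -0.31 relative to the median gene with any 1 library left out. It did not pass the quasi-likelihood test of edgeR (adjusted p = 0.35 by Benjamini-Hochberg).

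Rpl37a, a small zinc-finger protein of the large subunit, was at 113, 121 and 131 CPM in Ube2fflox and 100, 97.2 and 111 CPM in Ube2fΔIEC (log2 fold change -0.25, SE 0.08). Rps19, which is needed to mature the small subunit and is mutated in human Diamond-Blackfan anaemia, was at 196, 185 and 205 CPM against 157, 164 and 180 CPM (-0.22, SE 0.08). In both genes Ube2fΔIEC replicate 3 was the library of its genotype nearest to Ube2fflox. Rpl28, a large subunit protein, was at 291, 310 and 343 CPM against 275, 255 and 289 CPM (-0.20, SE 0.09). Rps29, a zinc-binding protein of the small subunit, was at 56.1, 57.6 and 60.9 CPM against 49.8, 47.6 and 54.2 CPM (-0.20, SE 0.08). The same order held there, with replicate 3 the highest of the Ube2fΔIEC libraries and the genotypes apart by less than the range within each. None of the 4 passed the quasi-likelihood test of edgeR (adjusted p from 0.506 to 0.604 by Benjamini-Hochberg).

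**Figure D3:**
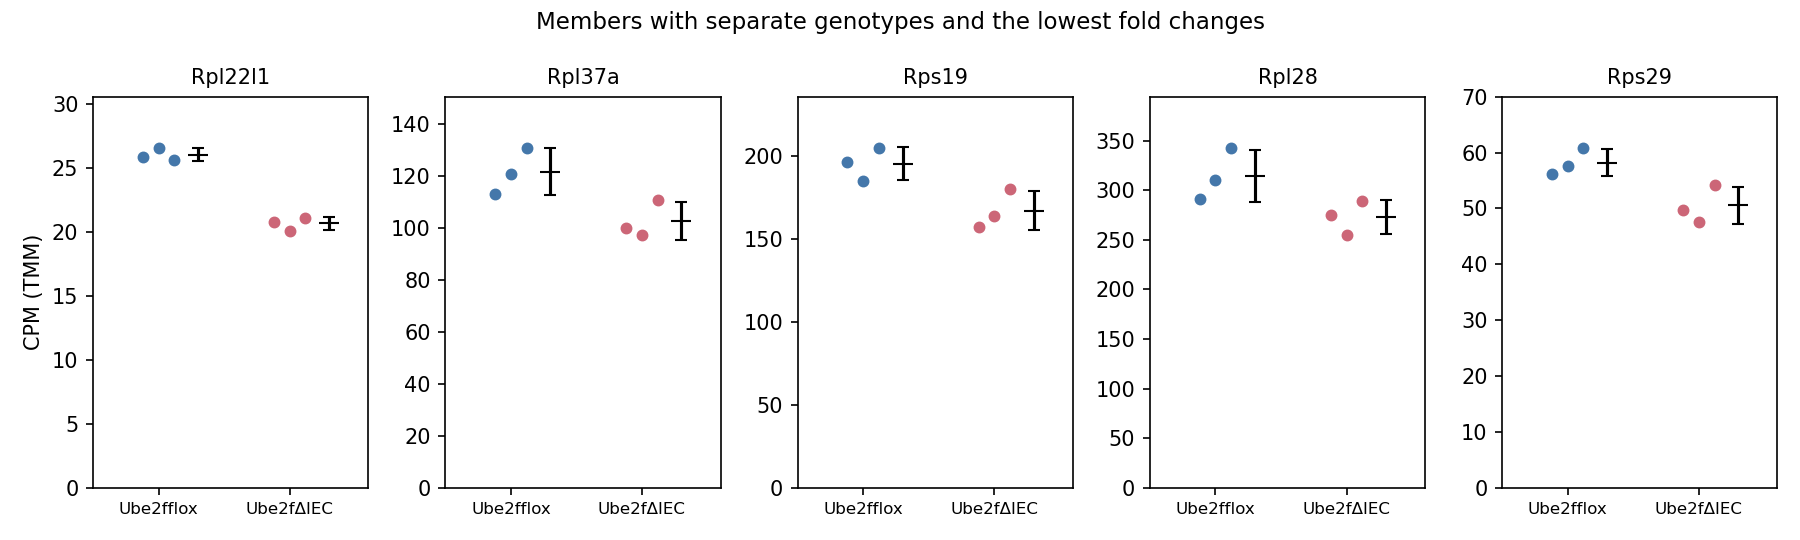
CPM of the 5 members with separate genotypes and the lowest fold changes; points are mice, and bars are the mean and SD of 3 mice per genotype. Rpl22l1 shows the widest gap for its spread, 25.6 to 26.6 CPM against 20.1 to 21.1 CPM, while in Rpl28 the genotypes nearly touch at 291 and 289 CPM.

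The members with roles outside the ribosome showed no change past the test. Rps27a, which is made as a fusion with ubiquitin, was at 201, 234 and 238 CPM in Ube2fflox and 209, 216 and 219 CPM in Ube2fΔIEC (log2 fold change -0.06, SE 0.08). The groups overlapped. Fau, a gene outside the symbol rule that encodes a ubiquitin-like protein fused to a small subunit protein, had a log2 fold change of -0.11 (SE 0.08). Among the MDM2 binders, Rpl5 was at 540, 550 and 551 CPM against 494, 544 and 550 CPM (-0.05, SE 0.08) and Rpl11 at 283, 269 and 282 CPM against 259, 266 and 279 CPM (-0.05, SE 0.07), both overlapping. Rpl23 had 214, 208 and 220 CPM against 178, 187 and 199 CPM (-0.19, SE 0.07), with the genotypes apart. Rps6, the substrate of the S6 kinases, was at 523, 512 and 518 CPM against 478, 519 and 549 CPM (-0.01, SE 0.08), and the Ube2fΔIEC libraries lay on both sides of the others.

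The paralogs were compared with their parents as the ratio of the deposited FPKM, whose lengths are examined further on. Over all libraries the ratios were 0.341 for Rpl22l1, 0.618 for Rps27l and 0.0693 for Rpl7l1, and with CPM per kilobase of the principal transcript they were 0.200, 0.330 and 0.0402. The level of a ratio thus depends on the length used. Rpl22l1 stood at 0.391, 0.368 and 0.334 of Rpl22 in Ube2fflox and at 0.324, 0.310 and 0.319 in Ube2fΔIEC. The groups did not overlap and the mean difference on the log2 scale was -0.20, with an exact 2-sided permutation p of 0.1, the smallest that 3 mice against 3 allow, and 0.3 adjusted over the 3 pairs. Rpl22 was itself at 96.7, 106 and 112 CPM against 94.1, 94.5 and 96.6 CPM. Its log2 fold change was -0.14 (SE 0.07), and the genotypes were apart but nearly touched. Rps27l, which in human cells is a p53 target, stood at 0.766, 0.444 and 0.463 of Rps27 in Ube2fflox and 0.748, 0.553 and 0.929 in Ube2fΔIEC (exact permutation p = 0.3, 0.45 adjusted). The highest ratio, in Ube2fΔIEC replicate 3, stood on the lowest count of the parent, in the library where the identical copy Rps27rt took 58.6% of the sum of both. Rps27l itself had 34.7, 27.6 and 28.9 CPM against 32.5, 28.2 and 27.9 CPM, which overlapped. Rpl7l1 stood at 0.0810, 0.0643 and 0.0642 of Rpl7 against 0.0680, 0.0727 and 0.0650 (exact permutation p = 1.0).

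Rps4l, an intronless paralog of Rps4x on chromosome 6, had the highest fold change of the class and the least steady counts. It was at 9.04, 9.85 and 5.83 CPM in Ube2fflox and 19.8, 7.11 and 7.02 CPM in Ube2fΔIEC. One library, Ube2fΔIEC replicate 1, held the high value and the other 2 of its genotype lay inside the Ube2fflox range. The log2 fold change of 0.45 (SE 0.41) became -0.22 relative to the median gene without that library. The annotated pseudogene rows had log2 fold changes of -0.45 for Rpl32l (SE 0.46), -0.21 for Rpl6l (SE 0.12), -0.16 for Rps3a2 (SE 0.20) and 0.02 for Rps3a3 (SE 0.20), and 0 of the 4 had the genotypes apart.

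The widest spreads within a genotype among the 77 members that encode proteins of the ribosome belonged to Rpl17, Rpl7a and Rps27, each with a near-identical copy. Identity was measured only for these genes and the paralogs. Large copy shares also went with narrow spreads, as in Rps12 (45.3% of the sum, SD 0.038) and Rpl9 (28.7%, SD 0.049), while Rpl21 (70.7%) had 0.16. Rps27 had 57.9, 79.5 and 79.8 CPM in Ube2fflox and 55.6, 65.1 and 38.5 CPM in Ube2fΔIEC, and a log2 fold change of -0.45 (SE 0.20), the lowest of these 77 with all libraries. Relative to the median gene it was -0.26 without Ube2fΔIEC replicate 3, where Rpl37a stood at -0.30, and -0.37 without Ube2fflox replicate 2, where Rpl7a stood at -0.49. Its copy Rps27rt had 24.4, 21.5 and 25.4 CPM in Ube2fflox and 23.5, 18.7 and 54.6 CPM in Ube2fΔIEC. The library with the lowest Rps27 was the library with the highest Rps27rt. Their sum was 82.3, 101 and 105 CPM against 79.2, 83.9 and 93.0 CPM, and its log2 ratio of means was -0.17. The SD within a genotype was 0.333 on the log2 scale for Rps27 and 0.158 for the sum.

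**Figure D4:**
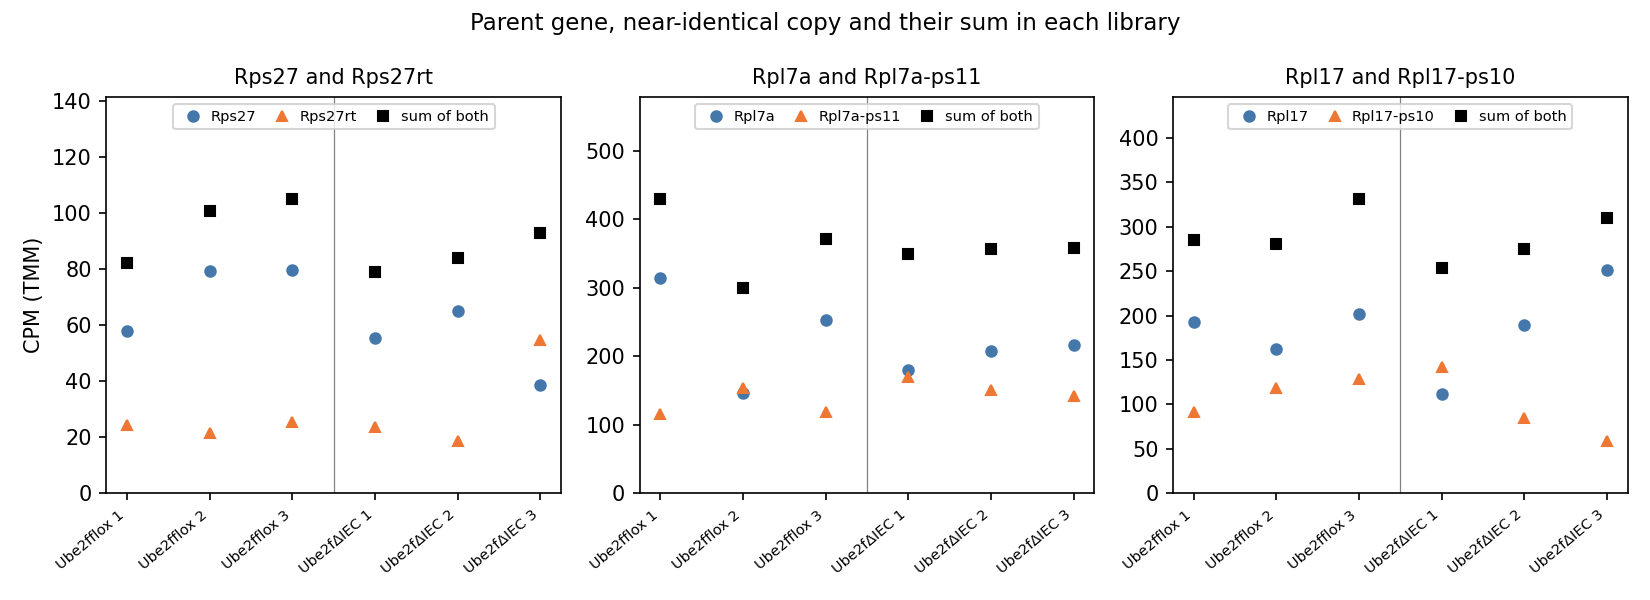
CPM of a parent gene, its near-identical copy and their sum in each of the 6 libraries. For Rps27 and Rpl17 the library lowest in the parent is the highest in the copy, and the parents vary 2.07-fold, 2.14-fold and 2.25-fold between the lowest and the highest library and the sums 1.33-fold, 1.43-fold and 1.31-fold.

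For Rpl7a and Rpl17 the sum was likewise steadier than the parent. Rpl7a had 314, 146 and 253 CPM in Ube2fflox and 180, 207 and 216 CPM in Ube2fΔIEC, while Rpl7a-ps11 had 116, 154 and 118 CPM against 169, 150 and 142 CPM. The copy took from 26.9% of the sum in Ube2fflox replicate 1 to 51.3% in replicate 2, and the SD within a genotype was 0.413 for the parent and 0.184 for the sum. The log2 ratio of means was -0.24 for the parent and -0.05 for the sum. Rpl17 had 193, 162 and 202 CPM against 112, 190 and 251 CPM, and Rpl17-ps10 had 92.0, 119 and 129 CPM against 142, 85.0 and 59.1 CPM. The copy took from 19.0% of the sum in Ube2fΔIEC replicate 3 to 55.9% in replicate 1. The SD was 0.436 for the parent and 0.139 for the sum, and the log2 ratios were -0.01 and -0.10. These pairs were picked for their spread after their values were seen, so the smaller spread of the sum is a description.

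Over the class, 60 members had 223 rows named as their copies. In 14 members the copies held at least 10% of the summed counts. In 12 of those 14 the SD within a genotype was smaller for the sum than for the parent row, with medians of 0.066 and 0.076. Some drops were slight, as from 0.053 to 0.052 for Rpl10, and Rpl9 (0.049 to 0.06) and Rpl35 (0.075 to 0.081) rose. A sum can vary less than its parts without any exchange of reads, so this count too is a description. The copies exceeded the parent in 2 members: Rpl21, where 12 copies held 70.7% of the sum, and Rpl17, where 7 copies held 54.3%. Rpl21, a large subunit protein, was at 33.6, 35.0 and 32.2 CPM in Ube2fflox and 33.4, 24.8 and 27.2 CPM in Ube2fΔIEC, and with its copies at 111, 108 and 112 CPM against 107, 94.1 and 104 CPM. Sums over copies left the median log2 fold change of the class at -0.10. The sources used here do not say how reads matching several genes were placed, so values of single members with copies are uncertain.

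Levels per length were compared for the 77 members that encode proteins of the ribosome. Their mean FPKM ran from 8.25 to 743, a 90.1-fold range, with a median of 125. The highest were Rplp0 at 743, Rplp1 at 682, Rps3a1 at 488, Rpl4 at 474 and Rps15 at 449 FPKM, and the lowest was Rpl21. Counts and FPKM together imply a length by which the authors divided, up to a factor of library scale. The annotated pseudogene rows, with a single transcript each, implied 1.10 to 1.12 times their whole length, so a ratio near 1.10 corresponds to no excess. The implied length of the 77 had a median of 1965 nucleotides (423 to 6918), against a median of 774 (345 to 5130) for the principal transcript in GENCODE M21, and exceeded the transcript by more than 2 times in 51 of 77 genes. Rplp1 and Rps3a1 had ratios of 1.10. Rps19 had 5170 against 774 nucleotides and Rpl35a 3891 against 491. Divided by the principal transcript, mean CPM per kilobase ran from 33.4 to 1002, a 30.0-fold range, and the SD over genes on the log2 scale was 0.97 in place of 1.22. Rps19, at 34.9 FPKM, was at 234 CPM per kilobase, beside 625 for Rps15 and 1002 for Rplp0. The rank of a member by level thus depends on which length is used.

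**Figure D5:**
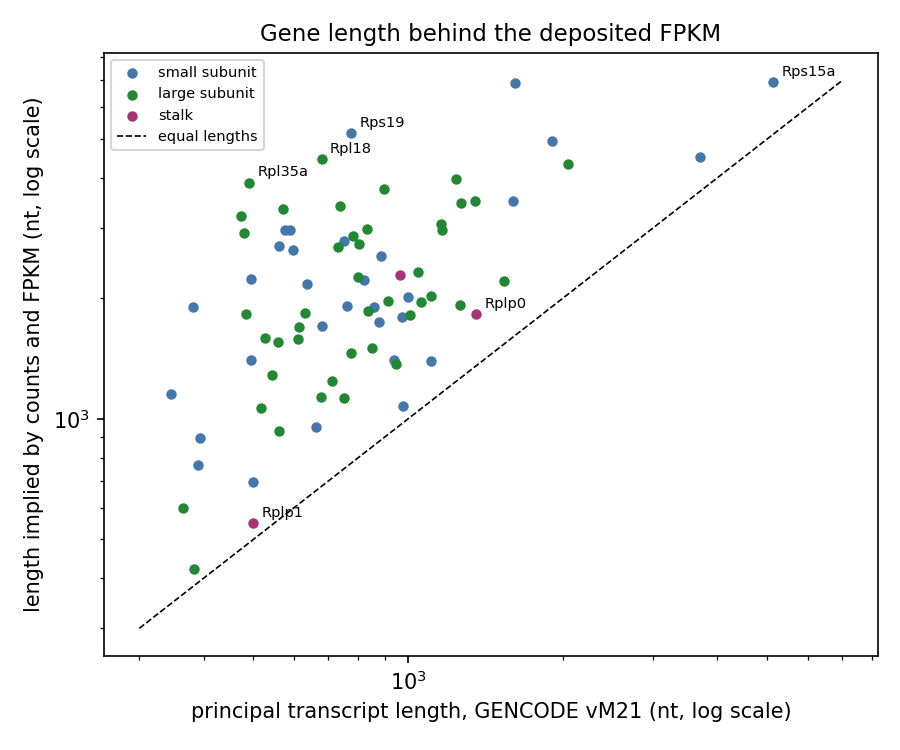
Length implied by the deposited counts and FPKM against the length of the principal transcript in GENCODE M21, for 77 members, both in nucleotides on log axes; the dashed line marks equal lengths. All points lie above the line, by 1.10 to 7.93 times, of which about 1.10 times is also seen in the annotated pseudogene rows, which have a single transcript each.

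Genes that work with the ribosome were counted from lists, and 0 genes of any list passed the test. Of the other genes with TOP mRNAs (translation factors and a few more), 18 of 22 were below 0, against 50.0% of all genes, with a median of -0.07 and 7 with the genotypes apart, all lower, against 6.90% of all genes. Without Ube2fΔIEC replicate 1 the same number were below 0 and the median was -0.06. With library totals 0 of the 22 had all Ube2fΔIEC libraries lower, against 2.20% of all genes, and 9 had them higher, against 20.3%. Eef1a1, the elongation factor that delivers tRNA, was at 5436, 5604 and 5627 CPM in Ube2fflox and 5091, 5504 and 5672 CPM in Ube2fΔIEC (-0.04, SE 0.09), and Eef2, the translocase, had a log2 fold change of -0.09 (SE 0.09). Eif3e, a subunit of an initiation factor, was at 122, 124 and 121 CPM against 105, 109 and 111 CPM (-0.18, SE 0.06), with the genotypes apart, and Hnrnpa1, an RNA-binding protein, stood higher at 0.17 (SE 0.10) with overlap.

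Most factors that build ribosomes had positive values. Of 52 tested, 46 were above 0, with a median log2 fold change of 0.13 beside 0.00 over all genes, and 7 had the genotypes apart in the higher direction against 1 in the lower, patterns that 7.26% and 6.90% of all genes showed. Without Ube2fΔIEC replicate 1 the median was 0.15, with 49 of 52 above 0. Noc4l, needed to make the small subunit in yeast, was at 22.7, 17.5 and 17.5 CPM in Ube2fflox and 24.0, 27.0 and 25.6 CPM in Ube2fΔIEC (0.41, SE 0.13; quasi-likelihood test of edgeR, adjusted p = 0.457 by Benjamini-Hochberg). Ncl, the nucleolar protein nucleolin, had 0.08 (SE 0.08), and Eif6, which keeps the subunits apart, had -0.11 (SE 0.07) with the genotypes apart. With library totals the medians of factors and members were 0.28 and 0.05. A change of scaling shifts both lists alike, so their order could hardly differ between the scalings. The difference between the lists was not tested. The markers of dividing cells given above were higher alongside it.

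Of 20 genes of translation control and Myc, 13 were above 0 (median 0.09, and 0.08 without Ube2fΔIEC replicate 1), with Eif4a1, a helicase of initiation, at 414, 385 and 380 CPM against 414, 430 and 463 CPM (0.15, SE 0.08) and Myc at 0.09. The highest gene of that list, Eif4g1, the initiation scaffold, had 0.09 (SE 0.10), and Max, the partner of Myc, had -0.37 (SE 0.14). The genotypes overlapped for Max. Of 14 tested genes of the p53 checkpoint that ribosomal proteins feed, 6 were above 0 and 8 below, with a median of -0.05 that was 0.05 without Ube2fΔIEC replicate 1. Trp53 was at 63.6, 57.9 and 62.6 CPM against 67.0, 68.4 and 73.1 CPM (0.18, SE 0.07), and its targets Cdkn1a, a cell cycle inhibitor, and Sesn2, a stress sensor, had -0.13 (SE 0.09) and -0.33 (SE 0.10). Mdm2 had 0.06.

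Mitochondrial ribosomal proteins, which form a separate ribosome, were split, with 46 of 78 above 0 and a median of 0.02, which was -0.02 without Ube2fΔIEC replicate 1. The smallest p among them belonged to Mrpl3, of the mitochondrial large subunit, at 28.0, 22.4 and 21.7 CPM in Ube2fflox and 37.6, 35.2 and 35.8 CPM in Ube2fΔIEC (0.59, SE 0.11; quasi-likelihood test of edgeR, adjusted p = 0.187 by Benjamini-Hochberg). In the other direction Mrps10, of the small subunit, was at 16.7, 16.2 and 14.6 CPM against 12.8, 11.9 and 11.5 CPM (-0.39, SE 0.11). The genotypes were apart for both. Of 142 tested pseudogene rows of cytosolic ribosomal proteins, 106 were below 0 with a median of -0.16 (-0.10 over the 147 tested without Ube2fΔIEC replicate 1), and the most counted after Rpl7a-ps11 was Rps12-ps3 at 117, 118 and 120 CPM against 111, 117 and 120 CPM. Rpl14-ps1 was at 82.5, 88.5 and 91.6 CPM against 67.9, 71.9 and 74.1 CPM (-0.30, SE 0.07), beside its parent Rpl14 at 213, 205 and 229 CPM against 193, 188 and 207 CPM (-0.14, SE 0.08). Both rows were lower in Ube2fΔIEC on average, and only the copy had the genotypes apart.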

How the data were processed

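Poly(A) RNA from colon epithelium of 6 mice, 3 per genotype, was measured. The deposited table holds whole-number counts and FPKM per gene, per the file headers and values. Per the submitters' processing notes, the tools were HISAT2 2.2.1, cutadapt 1.9, edgeR, DESeq2 and StringTie 2.1.6, and the build was mm10. The counter, its treatment of reads with several matches, and strandedness are not given in the sources used here, so overlapping and near-identical genes are uncertain. The FPKM values were scaled by the authors for length and library size. Table coordinates equalled GENCODE M21 (GRCm38) for 517 of 26774 IDs (1.93%), so positions are those of M21 looked up by ID (85 of 85 members found), and start regions are RefSeq's on GRCm38.p6. Columns of other samples numbered 0.

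Genes kept by filterByExpr (17900 of 28500) received TMM factors and entered edgeR's quasi-likelihood fit, genotype only, 2-sided, Benjamini-Hochberg threshold 0.05 (edgeR 4.0.16, limma 3.58.1, R 4.3.3). SE is the log2 fold change over the square root of F. The biological coefficient of variation was 24.8%. The edgeR test and DESeq2 were also run on simulated counts, with results that are not reported here and that back no call. Ratios of FPKM were compared by exact permutation. Coding sequences were aligned with Biopython 1.88. Alternatives were RLE, upper-quartile and total scaling, TMM without ribosomal protein and mitochondrial genes, no filter, DESeq2 1.42.0, limma on log2(FPKM + 1) and log2(FPKM + 0.1), a replicate block, and each library left out; sums with copies, lists without Ube2fΔIEC replicate 1, members without annotated pseudogenes and shares without mitochondrial genes were added after seeing the data. A count of 3 corresponds to 0.0387 to 0.0536 CPM, for counting error only.

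Members and lists were chosen with earlier results of these data known. Named genes are Ube2f, members called, the 5 lowest and highest fold changes among members of at least 10 CPM with genotypes apart, the 5 highest and 3 lowest in FPKM, those next to the FPKM limit, Rps27a, the stalk, MDM2 binders, Rps6, X-linked members, paralog pairs, and in each list the 2 of highest CPM and the smallest p per direction. Rpl7a, Rpl17, Rpl21, Rps4l, Rpl6l, Rpl14, Rpl35a, Rps12, Rps15a, Rps20, Fau, Myc and Mdm2 were chosen after their values were seen. The pair of Rpl39 and its paralog was not analysed here. Some results are not reported here.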

Additional observations from a re-analysis of the deposited data

How the results depend on the processing

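No setting called a member: 0 of 85 passed under any scaling, without the filter, in DESeq2, in limma on FPKM, with the replicate block or with any library left out, while the number of genes called in all was 8 in the edgeR fit, 18 with library totals, 7 without the filter, 3 and 5 in limma on log2(FPKM + 1) and log2(FPKM + 0.1), 234 in DESeq2, and from 0 to 90 when 1 library was left out. The median log2 fold change of the members, -0.10, turned to 0.05 with library totals and to 0.06 in limma on log2(FPKM + 1) and on log2(FPKM + 0.1), scales on which the median of all genes moved as well. It lay between -0.14 and -0.08 with 1 library left out. Relative to the median of all genes it was between -0.14 and -0.03 in every alternative run, a measure that a change of scaling alone leaves nearly fixed. The members' share of counts, 0.125 percentage points higher in Ube2fΔIEC, turned to -0.050 with mitochondrial genes and pseudogenes out of the total and to -0.050 with mitochondrial genes alone out, and was 0.612 as a share of summed FPKM and 0.082 to 0.169 with 1 library left out. The Rpl7l1 to Rpl7 difference, -0.02, ran from -0.08 to 0.09. Of 37 named genes, 11 changed sign relative to the median gene when a library was left out: the ranges were -0.04 to 0.03 for Rpl10, -0.30 to 0.26 for Rpl17, -0.07 to 0.02 for Rpl4, -0.07 to 0.01 for Rpl5, -0.49 to 0.01 for Rpl7a, -0.02 to 0.02 for Rps12, -0.11 to 0.06 for Rps27l, -0.10 to 0.01 for Rps3a1, -0.05 to 0.10 for Rps3a3, -0.22 to 0.71 for Rps4l and -0.05 to 0.05 for Rps6. The causes were not tested. The labels do not tie the replicate numbers to a litter or day, so the numbers were not taken as pairs. With the replicate number as a block the median was -0.10 and 0 members and 10 genes were called, so the block changed no member's call. The deviations of same-numbered libraries correlated at 0.0813, -0.0147 and 0.0827, and those of differently numbered libraries at -0.109 to 0.0375. These values do not decide whether the numbers mark pairs. At 3 mice per genotype, member differences of about 0.1 on the log2 scale are near 1 SE, with a median SE of 0.08.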
